A study of Mus musculus with 12 samples.

Results

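The effect of losing Syt14 was taken here as the mean of its hippocampal and cerebellar effects. A large effect in a single region can carry this mean, so a call does not require an effect in both. All 12 of the 12 libraries entered: hippocampus and cerebellum from 3 mice labelled as SYT14 knockout (Syt14-/-) and from 3 wild-type mice (Syt14+/+). By the number in the column names every animal gave both tissues, and the fit treated the pair of libraries of one animal as correlated. The labels name no strain, age, sex or treatment, and no part of the gene as the altered one. The series title and design text place the gene in mood disorder and motor coordination.

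Synaptotagmins are membrane proteins with a pair of C2 domains that act in vesicle trafficking and, in several members, sense calcium at the moment of transmitter release. Syt14 belongs to the members whose C2 domains are thought not to bind calcium, and it has been linked to cerebellar ataxia in people. Immediate early genes, which recur below, are transcription factors and signalling genes that neurons and other cells switch on within minutes of a stimulus and that need no new protein for it.

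Library totals ran from 24355572 to 34971359 counts. The column headers carry the same L code in all hippocampus libraries and a different one in all cerebellum libraries. They do not say what this code stands for. Code and tissue cannot be told apart, while both genotypes share each code. Some libraries stood apart in tissue that borders the dissected regions. The summed level of 18 choroid plexus markers was 50.5 CPM (counts scaled to the library total) in the cerebellum of SYT14-KO replicate 3 and between 1122 and 3152 CPM in the other 5 cerebellum libraries. Meningeal markers summed to 873.7 CPM in the hippocampus of wild-type replicate 2 and to between 281.7 and 490.2 CPM in the other hippocampus libraries. The brainstem gene Slc6a2, the noradrenaline transporter, stood at 6.71 and 15.5 CPM in the cerebellum of SYT14-KO replicates 1 and 2 and between 0.242 and 2.05 CPM in the other 4. Results were therefore also computed with these marker scores as covariates and without the libraries concerned.

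Syt14 itself was lower in the knockout animals in both tissues and was the one gene that fell. Its level is given as CPM after scaling by TMM, a factor that equalises library composition. Hippocampal Syt14 stood at 29.2, 28.0 and 30.6 CPM with the knockout genotype and at 38.5, 38.9 and 38.2 CPM in wild type. Cerebellar Syt14 stood at 30.6, 30.7 and 30.3 CPM against 33.8, 33.4 and 38.2 CPM. Every knockout library lay below every wild-type library of its tissue. The averaged log2 fold change was -0.30 ± 0.04 (SE), a knockout level of 81.3% of wild type (95% interval 76.2 to 86.9%). The effect passed the test across all genes (voomLmFit in edgeR, Benjamini-Hochberg adjusted p = 0.0451). A two-sided exact permutation test of the animal means, 3 against 3, gave p = 0.1, the smallest it allows. The hippocampus contributed -0.40 and the cerebellum -0.20, with an unadjusted p of 0.038 for the difference between tissues. Gene-level counts include transcript from outside an altered part, so the remaining level says nothing about the protein.

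The call for Syt14 lay close to the threshold. It was lost without SYT14-KO replicate 1 (adjusted p = 0.567), SYT14-KO replicate 2 (0.447), wild-type replicate 1 (0.321) or wild-type replicate 3 (0.0929), by the same edgeR fit, while the log2 fold change of Syt14 stayed between -0.32 and -0.27. It was also lost with the meningeal score as a covariate (0.246), the choroid plexus score (0.0772) or the brainstem score (0.0824), and without the cerebellum of SYT14-KO replicate 3 (0.0524) or the hippocampus of wild-type replicate 2 (0.179).

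Across all 19027 genes tested, 3 passed for the averaged effect (0.0158%). Fosl2 and Cck rose (0.0105%), and Syt14 fell (0.00526%). At an unadjusted p under 0.05 there were 1126 genes (5.92%), of which 661 were higher (3.47%) and 465 lower (2.44%) in the knockout animals. The median of all genes was 0.00 on the log2 scale. The counts moved with single animals: without SYT14-KO replicate 3 the fit called 34 genes that rose and 5 that fell, and without wild-type replicate 2 it called 3 and 11.

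Fosl2 encodes Fra-2, a subunit of the AP-1 transcription factor. It stood at 17.9, 17.9 and 20.4 CPM in the knockout cerebellum and at 9.11, 8.29 and 8.03 CPM in the wild-type cerebellum. In the hippocampus it stood at 74.3, 78.0 and 68.0 CPM against 68.7, 69.3 and 67.0 CPM, and the groups overlapped. Only the cerebellum separated the genotypes. The averaged log2 fold change of 0.63 ± 0.06 (SE; edgeR, adjusted p = 3.35e-04) combined 0.10 in the hippocampus with 1.15 in the cerebellum.

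Cck encodes cholecystokinin, a neuropeptide of cortical and hippocampal neurons. It stood at 54.5, 49.3 and 53.9 CPM in the knockout cerebellum and at 29.6, 25.9 and 29.9 CPM in the wild-type cerebellum. Its hippocampal level was 248, 246 and 252 CPM in knockout against 248, 236 and 263 CPM in wild-type libraries, so the knockout values lay inside the wild-type range. The averaged log2 fold change was 0.45 ± 0.04 (SE; edgeR, adjusted p = 3.35e-04), made of 0.00 in hippocampus and 0.89 in cerebellum. For both Fosl2 and Cck the difference between tissues passed the test over all genes, and these were the 2 genes that did so (0.0105%), while 990 genes had an unadjusted p under 0.05 for it (5.2%). With the 3 marker scores together as covariates, neither passed: the log2 fold change was 0.35 for Fosl2 (adjusted p = 0.459) and 0.36 for Cck (adjusted p = 0.342).

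**Figure D1:**
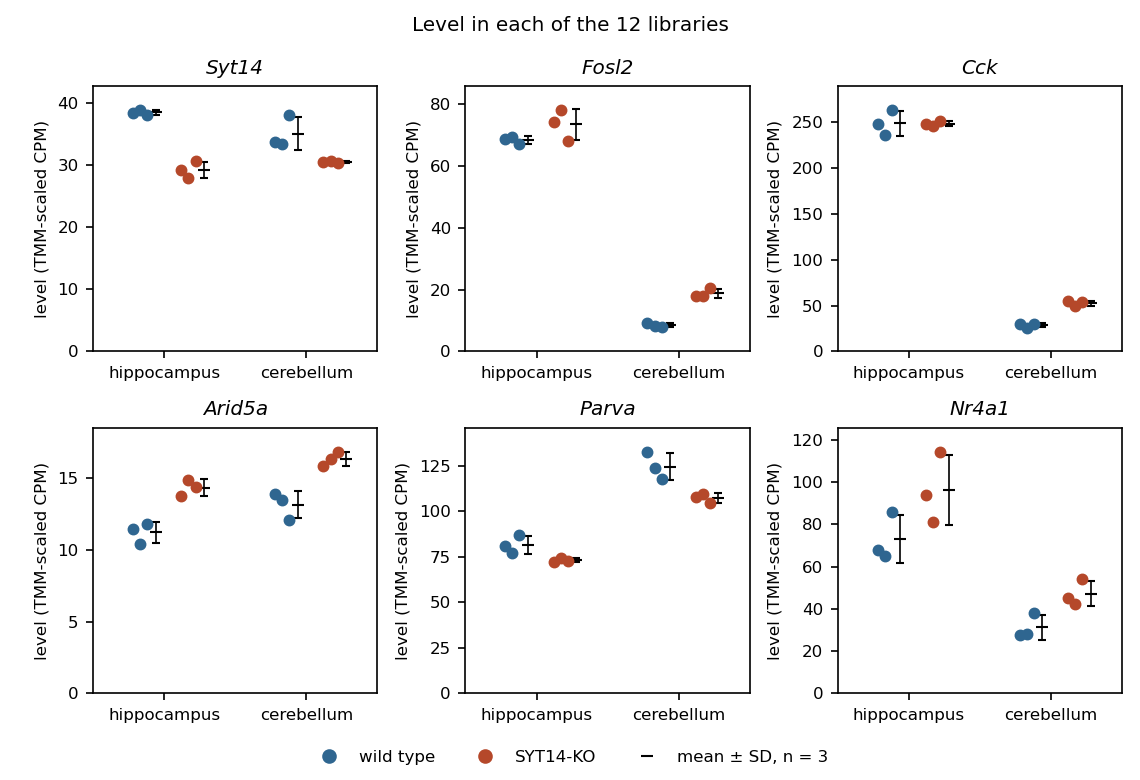
Level in TMM-scaled CPM (vertical axis, from 0) of 6 genes in each library by tissue, with wild type in blue, SYT14-KO in red and the black mark and bar giving mean ± SD of 3 libraries. Syt14, Arid5a and Parva are separated by genotype in both tissues, Fosl2 and Cck in the cerebellum alone, and Nr4a1 overlaps in the hippocampus.

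Genes that differed the same way in both regions were counted by p and by the separation of their levels. In each tissue alone, 925 genes had an unadjusted p under 0.05 in the hippocampus (4.86%) and 1265 in the cerebellum (6.65%). Both held in the same direction for 58 genes (0.305%): 41 were higher in both tissues (0.215%) and 17 lower (0.0893%). Both held in opposite directions for 20 genes (0.105%). By levels, 84 genes had every knockout library above every wild-type library in both tissues (0.441%) and 64 had every one below (0.336%), while 98 genes were separated in opposite directions (0.515%). Taken singly, 1863 genes were separated in hippocampus (9.79%) and 2241 in cerebellum (11.8%). The 84 and 64 genes make 148 in all (0.778%). Of the 58 genes, 37 also met the second criterion, 29 higher and 8 lower. Of all genes tested, 26.6% lay above 0 in both tissues and 25.2% below.

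The counts by p moved with single animals. Without SYT14-KO replicate 1 they were 25 higher and 6 lower, without SYT14-KO replicate 3 there were 32 lower, and without wild-type replicate 2 there were 73 lower. Of the 58 genes, 7 are predicted genes and 6 had a mean under 1 CPM. Chromosome 1, which carries Syt14, held 6 of the 58 (10.3%) and 6.27% of the genes tested. Those 6 are Syt14, Arid5a, Pms1, Clk1, Utp14b and Ephx1, and Ephx1, the nearest of them, lies 11.9 Mb from Syt14. Pms1 and Clk1 are named after their values were seen.

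**Figure D2:**
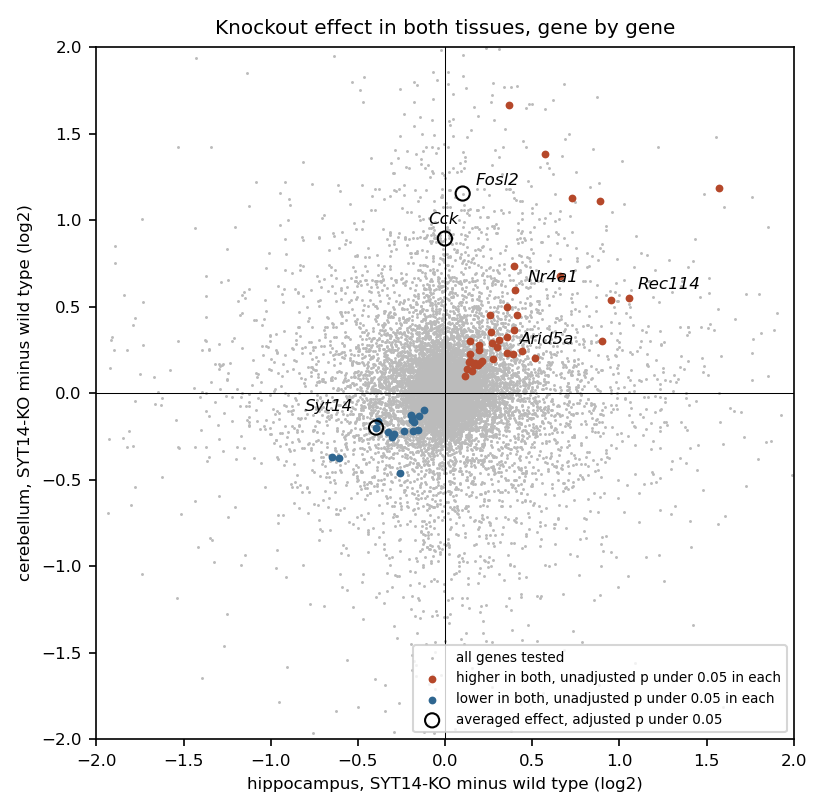
Log2 fold change of SYT14-KO over wild type in the hippocampus (horizontal) and the cerebellum (vertical) for all genes tested, 108 of which lie outside the axes. Red and blue mark those of the 41 higher and 17 lower genes with an unadjusted p under 0.05 in each tissue that lie inside the axes, and black circles the 3 genes called for the averaged effect, of which Syt14 alone is also coloured.

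Beyond Fosl2, no gene with a value above 0 in both tissues passed the test, and the values that follow are given as such. Arid5a, a nucleic acid binding protein known for stabilising messenger RNAs of inflammation, came next after the called genes. It stood at 13.7, 14.9 and 14.4 CPM in the knockout hippocampus against 11.4, 10.4 and 11.8 CPM, and at 15.8, 16.4 and 16.8 CPM in the knockout cerebellum against 13.9, 13.5 and 12.1 CPM. The groups did not overlap in either tissue. Its averaged log2 fold change was 0.34 ± 0.06 (SE), with 0.36 (hippocampus) and 0.32 (cerebellum), and the adjusted p of the edgeR fit was 0.200. With DESeq2, which does not use the animal, Arid5a passed (adjusted p = 0.00961).

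Nr4a1, an orphan nuclear receptor and immediate early gene, held 93.7, 81.1 and 114 CPM in the knockout hippocampus against 67.8, 64.9 and 85.9 CPM. In the cerebellum it held 45.1, 42.5 and 54.0 CPM against 27.6, 28.3 and 38.2 CPM. In the hippocampus wild-type replicate 3 lay above SYT14-KO replicate 2, and in the cerebellum the groups did not overlap. The averaged log2 fold change was 0.50 ± 0.10 (SE; edgeR, adjusted p = 0.489), with 0.40 and 0.59 in the tissues. Its relatives Nr4a2 and Nr4a3 had averaged values of 0.46 and 0.94, but with 0.15 and 0.12 in the hippocampus and 0.78 and 1.77 in the cerebellum. For Nr4a3 the wild-type cerebellum ran from 5.47 to 27.1 CPM.

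Of the other genes near the top, 3 lay above 0 in each tissue at an unadjusted p under 0.05, and 4 had most of their difference in 1 tissue. Utp14b, a gene of ribosomal RNA processing, had log2 fold changes of 0.36 in hippocampus and 0.23 in cerebellum, and its groups did not overlap in either. Zbtb21, a zinc finger repressor, had 0.14 and 0.23, also without overlap. Fxyd5, which regulates the sodium pump, had 0.35 and 0.50. Bdnf, the neurotrophin, Ryr3, an intracellular calcium release channel, and Elfn2, a synaptic adhesion protein, had averaged values of 0.26, 0.31 and 0.22, with 0.05, 0.00 and 0.07 in the hippocampus and 0.46, 0.62 and 0.38 in the cerebellum. Tiparp, an ADP-ribosyltransferase and early response gene, had the reverse weighting, with 0.40 (hippocampus) and 0.10 (cerebellum). The adjusted p of these 7 genes lay between 0.489 and 0.546 by the edgeR fit, while DESeq2, fitted without the animal, called Bdnf, Ryr3 and Elfn2. Exons of another gene cover 14.4% of the exon bases of Bdnf, and the strand setting of the counting is not given, so such reads cannot be assigned with certainty.

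Among the genes lower in both tissues Parva came next after Syt14. It encodes alpha-parvin, which ties integrins to actin. The knockout hippocampus held 72.3, 74.3 and 72.5 CPM against 81.0, 77.0 and 86.7 CPM, and the knockout cerebellum 108, 109 and 104 CPM against 132, 124 and 118 CPM. The groups did not overlap in either tissue. The averaged log2 fold change was -0.18 ± 0.04 (SE; edgeR, adjusted p = 0.489), a level of 88% of wild type, and DESeq2 called it (adjusted p = 0.0107).

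Rragd, a Rag GTPase of the amino acid branch of mTORC1 signalling, held 124, 119 and 119 CPM against 134, 132 and 127 CPM in the hippocampus. In the cerebellum it held 149, 146 and 146 CPM against 159, 158 and 155 CPM. The separation was complete in both tissues and the size small, with an averaged log2 fold change of -0.11 ± 0.03 (SE). Map2k5, the kinase above ERK5, had -0.19 in hippocampus and -0.15 in cerebellum, and Lgals3bp, a secreted galectin ligand, had -0.31 and -0.26. Neither Map2k5 nor Lgals3bp overlapped between genotypes in either tissue. Nr6a1, an orphan nuclear receptor of germ cells, had -0.26 and -0.46, and Ephx1, the microsomal epoxide hydrolase, -0.24 and -0.22. Both overlapped between genotypes in the hippocampus and not in the cerebellum.

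Sv2b, a glycoprotein of synaptic vesicles, stood between 511 and 562 CPM in the knockout hippocampus and between 559 and 578 CPM in the wild type. In the cerebellum it stood between 223 and 246 CPM against 250 and 272 CPM. Its averaged log2 fold change was -0.14 ± 0.04 (SE), and the hippocampus groups overlapped. Tbc1d9, which carries a Rab GTPase-activating domain, had -0.09 in hippocampus and -0.20 in cerebellum. The adjusted p of Rragd, Map2k5, Lgals3bp, Nr6a1, Ephx1, Sv2b and Tbc1d9 lay between 0.546 and 0.572 by the edgeR fit. The other lower genes near the top rested on few counts in the hippocampus. Trac, the constant part of the T cell receptor alpha chain, stood between 0.241 and 0.462 CPM against 0.748 and 0.988 CPM there, Insrr, the insulin receptor-related receptor, between 0 and 0.310 CPM against 0.433 and 0.684 CPM, and Crtam, a cell surface protein of T cells, was at 0 in all 3 knockout libraries against 0.076 to 0.315 CPM. A level of 3 counts corresponded to 0.0858 to 0.123 CPM over the libraries, so fitted fold changes of these genes depend on the prior count and are not given.

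Among genes that are not predicted models and have a mean of at least 1 CPM over the libraries, the widest complete separations in both tissues were found mostly at low levels. Higher in the knockout were Rec114, a protein of meiotic recombination (averaged log2 fold change 0.80), Col6a4, a collagen VI chain (0.86), Tnfrsf25, a death domain receptor (0.83), Rnf207, a ring finger protein (0.56), Mtag2 (0.53) and Wnt16, a secreted Wnt ligand (0.50). Lower were Mansc4 (-0.89), Cmtm7, a MARVEL domain protein (-0.49), Tmem53 (-0.45), Col13a1, a transmembrane collagen (-0.44), and Rab11fip1, a Rab11 effector (-0.34). None of these 11 genes passed, and the mean over the 12 libraries exceeded 10 CPM in Tnfrsf25 alone (14.4 CPM). Exons of Nptn cover 26.9% of the exon bases of Rec114, and exons of other genes 20.6% of those of Mtag2 and 10.2% of those of Tmem53.

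Gene groups are described by how many members lay on each side, and each count is to be read beside the share over all genes tested. Of all genes, 51.5% lay above 0 for the averaged effect. At an unadjusted p under 0.05 (edgeR fit) 3.47% were higher and 2.44% lower. In 0.778% the groups did not overlap in both tissues, in the same direction. In bulk tissue fewer cells of a type and less RNA per cell cannot be told apart. Of 30 immediate early genes, all tested, 1 rose, which was Fosl2, and 0 fell. At an unadjusted p under 0.05, 13 were higher and 0 lower. These p-values rest on 1 consensus correlation of 0.0358 between the tissues of an animal, taken for all genes. Where a gene follows the animal more closely than that, its p-value is too small. The mean level of the 30 genes ranked the 3 animals of each genotype alike in both tissues. Above 0 lay 27 of the 30, and 19 lay above 0 in both tissues against 1 below 0 in both. Their median averaged log2 fold change was 0.24, with 0.16 (hippocampus) and 0.27 (cerebellum), and single members ran from -0.14 to 1.82.

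The mean log2 CPM of the 30 genes over both tissues of an animal was 4.14, 4.09 and 4.34 in the knockout animals and 3.87, 3.78 and 4.05 in the wild-type animals, so the 6 animals separated by genotype. The animal means of the ERK feedback, heat shock, cholesterol synthesis, microglia and oligodendrocyte precursor lists also separated, all with the knockout higher. Those of the other lists overlapped. An exact permutation test of 3 against 3 animals gives p = 0.1 for such a separation and was not run on lists. Within tissues, the 30 immediate early genes held 3.62, 3.59 and 3.83 in the knockout cerebellum against 3.35, 3.21 and 3.35. In the hippocampus the values were 4.66, 4.59 and 4.85 against 4.40, 4.34 and 4.74, and wild-type replicate 3 lay above SYT14-KO replicates 1 and 2. Replicate 3 had the highest animal mean of its genotype among the knockout and among the wild-type animals. The median was 0.15 without SYT14-KO replicate 3 and at most 0.30 without any other animal. The cerebellum of SYT14-KO replicate 3, the library nearly without choroid plexus transcripts, held the highest immediate early level of its tissue. The median without that library was 0.19, and with the choroid plexus score as a covariate 0.19. Only Per1 of the 30 genes, beside 0.778% of all genes, had groups that did not overlap in both tissues. It held 105, 102 and 110 CPM against 86.8, 90.9 and 79.0 CPM in the hippocampus, and 119, 115 and 139 CPM against 105, 113 and 65.1 CPM in the cerebellum.

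**Figure D3:**
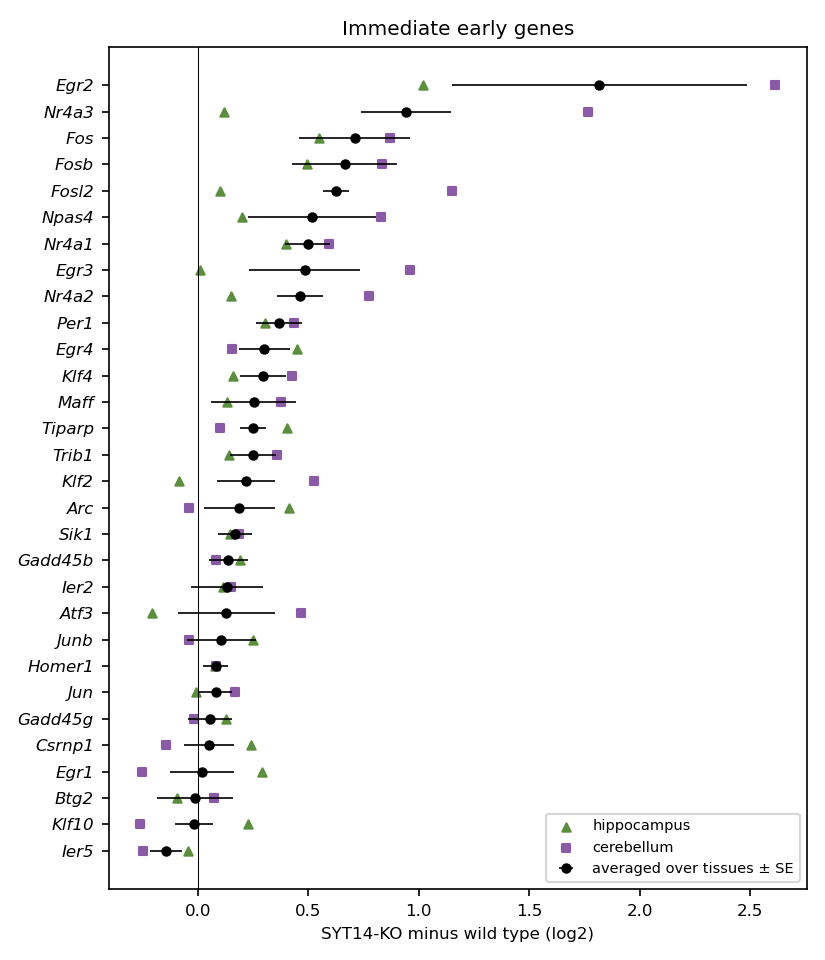
Log2 fold change of SYT14-KO over wild type (horizontal) for each of the 30 immediate early genes (vertical), with the averaged effect ± SE in black, the hippocampus as triangles and the cerebellum as squares. Most averaged values lie right of 0, from -0.14 to 1.82, and the tissues differ in size for many genes.

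The 250 bases before the RefSeq start sites of the 3 called genes and of Nr4a1 were searched for the letters of known promoter elements. They are printed for the build GRCm38.p6, 5′ to 3′ on the strand of the gene. Capitals mark matches on either strand to the letters CACGTG (E-box) or TGCGTCA, a variant of the cyclic AMP response element. The search also took the full element TGACGTCA, the AP-1 letters TGANTCA and the sterol letters TCACNCCAC, and found none of them in these 4 windows. Some of the letters TGACGTCA and TGCGTCA are shared, but no match of one is a match of the other.
Syt14 (chr1:193035776-193036025, minus strand): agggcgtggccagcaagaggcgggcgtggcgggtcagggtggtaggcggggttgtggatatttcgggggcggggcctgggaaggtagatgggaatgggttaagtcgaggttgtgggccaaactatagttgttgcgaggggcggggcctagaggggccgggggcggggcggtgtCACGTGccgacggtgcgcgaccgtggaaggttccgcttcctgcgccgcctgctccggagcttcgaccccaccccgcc
Fosl2 (chr5:32136222-32136471, plus strand): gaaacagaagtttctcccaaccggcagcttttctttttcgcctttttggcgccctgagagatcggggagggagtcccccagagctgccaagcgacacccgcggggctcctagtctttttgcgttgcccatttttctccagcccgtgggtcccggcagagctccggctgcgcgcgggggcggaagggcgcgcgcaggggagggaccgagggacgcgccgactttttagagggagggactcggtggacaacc
Cck (chr9:121495695-121495944, minus strand): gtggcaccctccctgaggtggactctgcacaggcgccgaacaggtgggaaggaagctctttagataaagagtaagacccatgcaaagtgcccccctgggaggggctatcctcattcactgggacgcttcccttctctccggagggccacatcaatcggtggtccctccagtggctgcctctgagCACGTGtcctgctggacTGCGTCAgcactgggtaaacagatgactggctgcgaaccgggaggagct
Nr4a1 (chr15:101266596-101266845, plus strand): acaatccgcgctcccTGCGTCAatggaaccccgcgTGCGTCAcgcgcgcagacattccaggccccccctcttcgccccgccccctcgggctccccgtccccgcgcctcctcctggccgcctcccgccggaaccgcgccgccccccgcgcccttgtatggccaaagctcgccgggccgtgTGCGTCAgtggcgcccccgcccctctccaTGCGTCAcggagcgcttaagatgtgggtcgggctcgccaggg
Nr4a1 holds the variant letters 4 times, starting at bases -235, -215, -71 and -42. Cck holds them at -49 beside an E-box at -66, Syt14 holds an E-box at -77, and Fosl2 holds neither in this window. Over promoter windows that add the first 50 bases of the transcript, the variant letters occurred in 3.80% of 13036 tested genes with an entry and in 3 of 23 immediate early genes with one. The E-box letters occurred in 10.9% and in 6 of 23, the full element in 3.22% and in 2 of 23, and the AP-1 letters in 6.35% and in 1 of 23. Nr4a1 was not called, and its promoter does not stand for other uncalled genes near the top. Arid5a, Nr4a2 and Nr4a3 hold neither the variant letters nor the full element in these windows, while Zbtb21 and Nr6a1 hold the full element. A match of letters describes the sequence and shows no binding.

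ERK feedback genes switch the kinase pathway upstream of many immediate early genes off again. Of 15 tested, 0 were called, 4 had an unadjusted p under 0.05 above 0 and 1 below, and the median was 0.03. Dusp5, a phosphatase of ERK, had log2 fold changes of 0.39 in hippocampus and 0.23 in cerebellum, Errfi1, an inhibitor of EGF receptor signalling, 0.21 and 0.10, and Dusp4 0.09 and 0.36. DESeq2, fitted without the animal, called Dusp5. In Dusp5, 22.1% of exon bases lie in an exon of another gene.

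Of 21 circadian clock genes, 0 were called, 3 had an unadjusted p under 0.05 above 0 and 1 below, 15 lay above 0, and the median was 0.04. Per1 and Per2, repressors of the clock that are also induced by stimuli, had averaged values of 0.37 and 0.33, and Rorb, a clock-linked nuclear receptor, 0.14. Per2 held 34.6 CPM in the hippocampus and 32.3 CPM in the cerebellum of wild-type replicate 3, the lowest value in each tissue. Without that animal the averaged values were 0.21 for Per1 and 0.12 for Per2, and without wild-type replicate 2 they were 0.48 and 0.49. The labels name no hour of tissue collection. Of 22 heat shock chaperone genes, 0 were called, 3 had an unadjusted p under 0.05 above 0 and 0 below, and the median was 0.04. Dnajb4, a co-chaperone, had groups that did not overlap in either tissue and an averaged value of 0.13, while Dnajb5 had 0.14 and Dnajb1 0.15. Of 18 glucocorticoid response genes 2 were higher and 1 lower at an unadjusted p under 0.05, with a median of 0.06 that was -0.03 without wild-type replicate 3, and Zbtb16, a zinc finger gene induced by glucocorticoids, had -0.26. The immediate early, clock and glucocorticoid response lists share Per1, so their counts are not independent.

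Cholesterol synthesis genes code for the chain of enzymes from acetyl-CoA to cholesterol and are regulated together through SREBP factors. None of the 25 tested was called. At an unadjusted p under 0.05, 8 were higher and 0 lower, 23 lay above 0, and 18 lay above 0 in both tissues against 0 below 0 in both. The size was small: the median was 0.09, with 0.10 (hippocampus) and 0.07 (cerebellum), and single genes ran from -0.04 to 0.17. The animal means of the 25 genes were 4.94, 4.90 and 4.96 log2 CPM in the knockout animals and 4.84, 4.83 and 4.89 in the wild-type animals, and so separated by a narrow gap. Within the hippocampus the groups overlapped, with SYT14-KO replicate 2 at 4.92 and wild-type replicate 3 at 4.96. Within the cerebellum they separated, at 4.89, 4.87 and 4.83 against 4.77, 4.79 and 4.82. The median stayed between 0.07 and 0.11 when each animal was left out in turn.

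Among these enzymes Cyp51, the lanosterol demethylase, held 71.4, 68.2 and 71.9 CPM in the knockout hippocampus against 65.6, 61.0 and 61.0 CPM, and 65.7, 61.4 and 52.9 CPM in the knockout cerebellum against 53.2, 51.4 and 54.3 CPM. The cerebellum groups overlapped through SYT14-KO replicate 3. Sc5d, a late desaturase, held 88, 91.6 and 88.5 CPM against 85.8, 82.5 and 79.4 CPM in the hippocampus, and 96.4, 100 and 97.2 CPM against 94.9, 89.3 and 91 CPM in the cerebellum. Sc5d was thus separated by genotype in both tissues. Averaged log2 fold changes were 0.17 ± 0.05 and 0.11 ± 0.03 (SE) for Cyp51 and Sc5d, and adjusted p-values of the edgeR fit were 0.636 and 0.732.

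Several groups had a higher median in the cerebellum than in the hippocampus, a difference that was not tested for groups. Of 26 secreted neuropeptide and neurotrophin genes, 1 rose, which was Cck, and 5 were higher and 0 lower at an unadjusted p under 0.05. The median was 0.17, from -0.01 in hippocampus and 0.36 in cerebellum. The mean log2 CPM of these genes in the cerebellum was 2.69, 2.41 and 1.99 in knockout and 2.24, 1.85 and 1.88 in wild-type libraries, so the groups overlapped, as did the animal means. The averaged median was 0.02 without SYT14-KO replicate 1 and 0.35 without SYT14-KO replicate 3. SYT14-KO replicates 1 and 2, the highest here, were also those with the most Slc6a2 in the cerebellum. The part of brainstem RNA in the averaged median was not tested beyond the fits with marker scores as covariates. Over all 21 other settings that median ran from 0.01 to 0.35. Scg2, a granin of secretory vesicles, had 0.07 and 0.40. Complement genes (22 tested, 6 higher and 0 lower at an unadjusted p under 0.05) had a median of -0.08 in hippocampus and 0.28 in cerebellum. C4b, C1qa and C1qb, proteins of the classical pathway, had averaged values of 0.24, 0.23 and 0.21, all with a negative value in the hippocampus. Glial reaction genes (26 tested, 6 higher and 1 lower) had -0.06 and 0.17, with an averaged median of 0.04 that was -0.02 without SYT14-KO replicate 2, and Gfap, the astrocyte filament, had 0.00 and 0.32.

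Microglia markers, some of which the complement list shares, lay above 0 in 17 of 18 genes, with 5 higher and 0 lower at an unadjusted p under 0.05 and a median of 0.09. That median too combined -0.01 in the hippocampus with 0.16 in the cerebellum, and the animal means were 3.75, 3.73 and 3.71 log2 CPM against 3.59, 3.58 and 3.70. The defining markers Cx3cr1, P2ry12 and Tmem119 were read in all 12 libraries, and their levels by library total overlapped between genotypes in both tissues. In the cerebellum Cx3cr1 held 18.2, 18.5 and 17.4 CPM in knockout against 17.1, 16.1 and 18.1 CPM. P2ry12 held 9.96, 9.58 and 10.3 CPM there against 8.50, 9.72 and 9.97 CPM, and Tmem119 6.01, 6.79 and 6.15 CPM against 7.02, 6.29 and 5.85 CPM. Tyrobp, an adaptor of microglial receptors from outside this list, had 0.09 and 0.63, and Fcrls, a microglial receptor within it, had -0.12 and 0.60. Oligodendrocyte precursor markers (13 tested, 3 higher and 0 lower) had a median of 0.06, with -0.02 and 0.17, and Gpr17, a receptor of these precursors, had 0.10 and 0.35. The part of cell numbers in these values was not tested.

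Other groups leaned to lower values in the hippocampus. Endothelium and pericyte markers (23 tested) had 0 higher and 6 lower genes at an unadjusted p under 0.05, with a median of -0.07 from -0.19 in hippocampus and 0.08 in cerebellum. Their summed level was 613 to 674 CPM in the knockout hippocampus against 711 to 788 CPM in the wild type. In the cerebellum it was separated the other way, with 960 to 974 CPM in knockout against 896 to 955 CPM in wild type. Eng, a TGF-beta co-receptor of endothelium, had -0.37 and 0.06, Cldn5, the tight junction claudin, -0.42 and -0.08, and Pltp, a lipid transfer protein, -0.22 and -0.05. Interferon response and MHC class I genes (32 tested, 1 higher and 1 lower) had -0.15 and 0.07, and H2-D1, a class I heavy chain, had -0.32 and -0.03.

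Markers of tissue that borders the dissected regions differed most in single libraries, and the animal means of the choroid plexus, meningeal, ependymal and brainstem lists overlapped between genotypes. All 18 choroid plexus markers lay below 0, with a median of -0.24 in hippocampus and -2.17 in cerebellum, and 2 of them had an unadjusted p under 0.05. Kl held 32.8, 83.4 and 1.63 CPM in the knockout cerebellum against 95.7, 112 and 48.8 CPM, and Prlr 6.41, 14.2 and 0.797 CPM against 18.1, 17.1 and 9.61 CPM. The averaged choroid plexus median of -1.21 was -0.45 without SYT14-KO replicate 3 and -1.81 without SYT14-KO replicate 2. All 19 meningeal markers lay below 0, with a median of -0.52 in hippocampus and 0.09 in cerebellum, and Slc13a4, a sulfate transporter of the meninges, held 16.7 CPM in the hippocampus of wild-type replicate 2 and 3.74 to 8.51 CPM in the other hippocampus libraries. Brainstem markers (10 tested) had a median of 0.08 in hippocampus and 1.04 in cerebellum, and Slc18a2, the vesicular monoamine transporter, held 8.47, 13.3 and 5.55 CPM in the knockout cerebellum against 4.91, 5.6 and 4.62 CPM. The averaged brainstem median of 0.46 was -0.02 without SYT14-KO replicate 2 and 0.74 without SYT14-KO replicate 3. Ependymal markers (11 tested) had -0.10 and -0.31, and their averaged median of -0.21 ran from -0.50 without SYT14-KO replicate 2 to 0.09 without SYT14-KO replicate 3. The part of these tissues in the results above was not tested beyond the fits with their scores as covariates.

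Gene groups close to the protein's known role showed little. Of 19 other synaptotagmins tested, 0 were called, 0 had an unadjusted p under 0.05, 8 lay above 0, and the median was -0.01. Those with the smallest unadjusted p were Syt12 (averaged value -0.07, 95% interval 88.6 to 102% of wild type), Syt5 (0.24, 92.5 to 152%) and Syt2 (-0.16, 75.9 to 106%). Of 39 SNARE and vesicle fusion genes tested, 0 had an unadjusted p under 0.05 and the median was -0.01. Bsn, a scaffold of the active zone, had -0.09 (87.4 to 101% of wild type) and Rph3a, a Rab3 effector, -0.07 (89.6 to 102%). None of the 24 glutamate receptor and 15 GABA receptor genes had an unadjusted p under 0.05, with medians of -0.01 each. The intervals bound the averaged change at this number of animals and do not show that levels were alike.

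Of 25 mood disorder genes tested, 2 were higher and 0 lower at an unadjusted p under 0.05, with a median of 0.01. They were Bdnf and Rimbp2, a scaffold of presynaptic calcium channels, which had 0.06 in hippocampus and 0.50 in cerebellum. Of 27 hereditary ataxia genes tested, 2 were higher and 1 lower, beside 3.47% and 2.44% of all genes, with a median of 0.00. Fgf14, which binds sodium channels, held 42.3, 42.5 and 39.1 CPM against 46.5, 44.5 and 47.2 CPM in the hippocampus and 67.5, 69.5 and 68.2 CPM against 78.0, 71.6 and 94.3 CPM in the cerebellum, without overlap in either. Atxn7, a subunit of the SAGA complex, held 52.5, 46.7 and 50.4 CPM against 43.4, 45.4 and 40.8 CPM and 51.8, 49.9 and 50.6 CPM against 48.4, 49.5 and 48.9 CPM, again without overlap. Averaged values were -0.20 ± 0.06 for Fgf14 and 0.13 ± 0.04 for Atxn7 (SE), and neither passed (edgeR, adjusted p = 0.722 and 0.745).

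The large housekeeping groups had medians near 0 whose tissue values differed in sign. Of 77 cytosolic ribosomal protein genes, 0 were higher and 1 lower at an unadjusted p under 0.05, with a median of 0.00 from -0.04 in hippocampus and 0.04 in cerebellum. Of 66 respiratory chain genes, 0 had an unadjusted p under 0.05, with a median of 0.00 from -0.03 and 0.03. The 12 genes of the mitochondrial genome had -0.01, and the 4 Y-linked genes, which serve as a check of sex, 0.02. Medians were 0.00 for astrocytes (16 tested), 0.05 for oligodendrocytes (17), -0.02 for hippocampal principal neurons (18), 0.01 for cerebellar granule and Purkinje neurons (22) and -0.02 for interneurons (18).

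**Figure D4:**
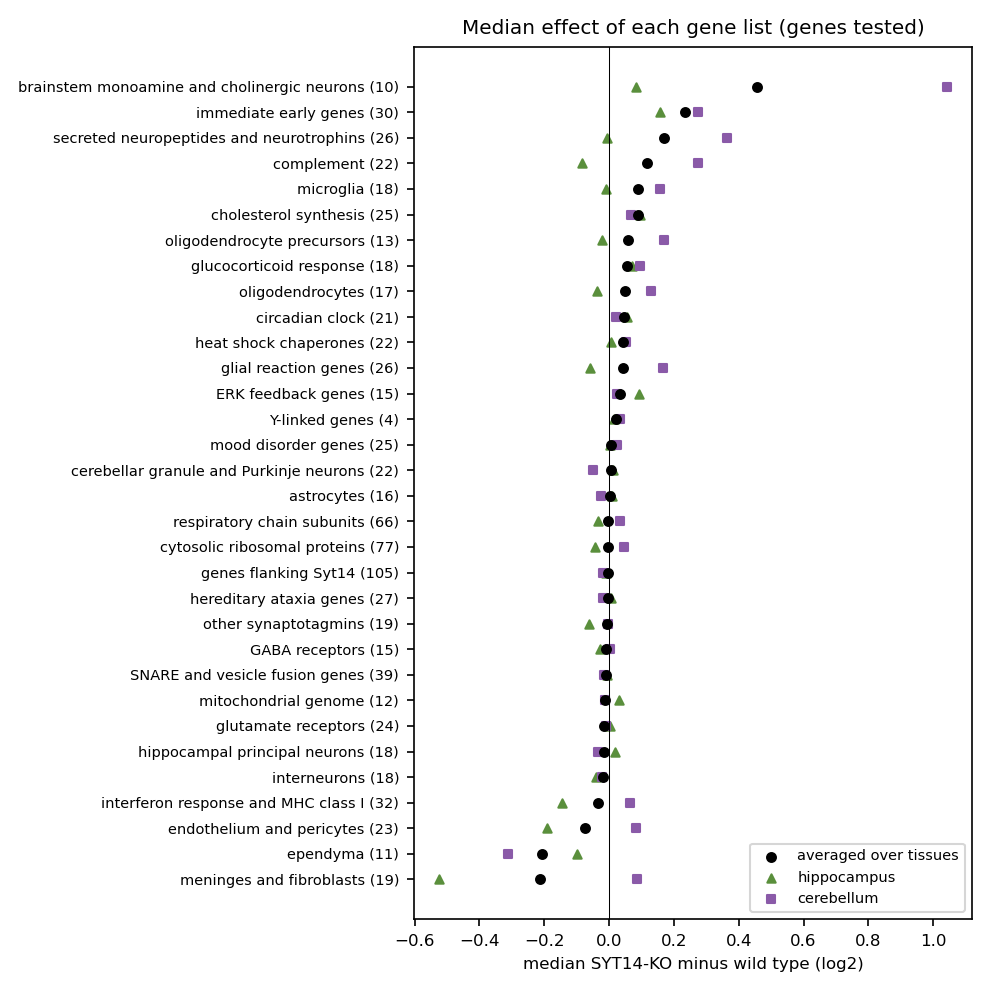
Median log2 fold change of SYT14-KO over wild type (horizontal) of each gene list (vertical, number of genes tested in brackets), averaged over tissues in black, in the hippocampus as triangles and in the cerebellum as squares; the choroid plexus list, at -1.21, lies outside the axis and is left out. Immediate early, cholesterol synthesis, ERK feedback, circadian clock, glucocorticoid response, heat shock and brainstem lists are among those above 0 in both tissues, while complement, microglia, endothelial and meningeal lists differ in sign between them.

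Genes that flank Syt14 on chromosome 1 within 10 Mb are inherited together with the altered locus when a line is bred. Of 105 tested, with Syt14 left out, 0 were called. At an unadjusted p under 0.05, 2 were higher and 6 lower, beside 3.47% and 2.44% of all genes. In both tissues and the same direction 0 were separated by genotype, beside 0.778% of all genes. Taken singly, 3 were separated higher and 8 lower in the hippocampus, beside 9.79% of all genes in either direction. In the cerebellum 10 were separated higher and 9 lower, beside 11.8%. The median averaged value of the 105 genes was 0.00. Kcnh1, an EAG potassium channel, had -0.03 in hippocampus and -0.29 in cerebellum, where it held 62.0, 63.6 and 65.0 CPM against 75.2, 81.6 and 75.9 CPM. Marc2, a mitochondrial reductase, had averaged -0.15 and Hsd11b1, which regenerates active glucocorticoid, -0.13, each more negative in the cerebellum.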

How the data were processed

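Poly(A)-selected, dUTP strand-marked RNA libraries were sequenced, per the labels' protocols. The submitters' processing notes name the builds mm10 and GRCm38 and, as tools, featureCounts 2.0.3, STAR 2.7.10 and Trimmomatic 0.39; their notes and labels name no annotation release and no strand setting of the counting. The authors deposited raw counts per gene, 1 table per tissue, which were used as deposited. Of 54446 gene identifiers 54409 matched GENCODE M21. Groups follow the labelled tissue and genotype, and the animal was read from the number in each column name. Replicates are separate animals. Totals ran from 24355572 to 34971359 counts, and levels quoted for 3 counts cover counting error only.

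The main fit was voomLmFit in edgeR 4.0.16 with limma 3.58.1 (R 4.3.3): TMM factors, filterByExpr (minimum count 10, minimum total 15), 4 groups, and the animal as a correlated block (consensus correlation 0.0358). The averaged effect is the mean of both within-tissue contrasts, tested two-sided and moderated, with Benjamini-Hochberg adjustment over 19027 genes and calls under 0.05. The edgeR quasi-likelihood test cannot take a correlated block and served as an alternative, as did DESeq2 1.42.0. Deviations of hippocampus and cerebellum with one number in the column names correlated at 0.00707 to 0.0814. Each hippocampus library correlated best with the cerebellum library of its own number. Knockout and wild-type cerebellum libraries of the same replicate number, which are different animals, correlated at up to 0.25. The check therefore cannot tell a shared animal from a shared replicate number, and that the number marks an animal rests on the column names. Figures used matplotlib 3.10.9.

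By the naming rule the text gives Syt14, then the 12 genes per direction with the smallest p among those with 1 CPM or more and the same sign in both tissues, the 6 per direction with the largest averaged change among genes that do not overlap in both, up to 3 members of each list by p, and Fosl2 and Cck; predicted genes are counted only, and some genes the rule allows are not reported here. The members, the 32 gene lists and the tests were chosen with earlier results of these data known. Promoter sequences are from RefSeq. Alternatives were 21 other settings for the averaged effect.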

Additional observations from a re-analysis of the deposited data

Results flagged for a closer look

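The knockout effect on Fosl2 differed between the tissues: the value in the cerebellum minus that in the hippocampus was 1.05 on the log2 scale, and the test of this difference passed over all genes (edgeR, voomLmFit, adjusted p = 0.00125). The knockout effect on Cck differed in the same way, by 0.89 (adjusted p = 4.14e-04). In both genes the 3 knockout libraries of the cerebellum lay above all wild-type libraries of that tissue, and the hippocampus groups overlapped.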

How the results depend on the processing

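The direction of the averaged Syt14 effect was the same in all 21 other settings. Syt14 no longer passed with limma-trend on animal means (log2 fold change -0.30), with the meningeal (-0.29), choroid plexus (-0.30) or brainstem score (-0.29) as a covariate, with all 3 scores (-0.32), or without the cerebellum of SYT14-KO replicate 3 (-0.30) or the hippocampus of wild-type replicate 2 (-0.29); in these 7 settings 0 genes fell. The last 3 settings were chosen after seeing the data. Genes that rose numbered 4 with the choroid plexus score, and 0 with all 3 scores, where Fosl2 (0.35) and Cck (0.36) also lost their calls while 1558 genes had an unadjusted p under 0.05. DESeq2 called 12 that rose and 2 that fell, and the fit with no filter on low counts, which tested 35179 genes, 62 and 77. Leaving out 1 animal gave 2 to 34 that rose, 0 to 11 that fell, and -0.32 to -0.27 for Syt14. The cause of these moves was not tested.

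Genes with an unadjusted p under 0.05 in each tissue numbered 25 to 59 higher and 6 to 73 lower when 1 animal was left out. Lower genes numbered 50 without a filter, 27 with sample quality weights and 30 with the choroid plexus score, and all 3 scores gave 83 higher and 168 lower. Of the 58 genes, 37 were also among the 57 found when each tissue was fitted alone. Genes whose groups do not overlap in both tissues numbered 202 to 363 higher and 175 to 378 lower without 1 animal, where fewer libraries have to be separated. Directions reversed with the choroid plexus score for Kl (0.050), and with all 3 scores for Elfn2 (-0.0093), Hsd11b1 (0.033), Gpr17 (-0.039) and Slc13a4 (0.27). Kl is part of the choroid plexus score and Slc13a4 of the meningeal score, so each was adjusted for a score that contains it. The other 71 of 76 genes recomputed kept their direction in every setting run. Of 33 list medians, 22 changed sign in at least 1 setting; without 1 animal these included glucocorticoid response (-0.034, without wild-type replicate 3), glial reaction genes (-0.024, without SYT14-KO replicate 2) and brainstem markers (-0.021, likewise).

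The replicate numbers are shared by the genotypes, and deviations of same-numbered knockout and wild-type libraries correlated at -0.01, -0.01 and 0.04 in the hippocampus and 0.09, 0.14 and 0.25 in the cerebellum. Each cerebellum library correlated best with its own number, and this did not hold throughout the hippocampus. With the replicate block 6 genes rose and 1 fell: all 3 of the main calls and Apold1, Nr4a1, Nr4a2 and Ryr3. With 3 animals per genotype, the exact permutation test of a single gene cannot go below p = 0.1, and low genes rest on a few counts per library.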
